A study of Mus musculus with 16 samples.

Results

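A set of 3 mouse genes for chitinase-like proteins, Chil3, Chil4 and Chi3l1, were followed across livers with cirrhosis and the inflammatory cells taken from them. They were 3 of the 33269 gene names measured on the arrays, found by the accession of the probe, and each had 1 probe. The 3 genes were chosen from results of these same arrays over all 4 groups, so their levels and differences are descriptions and carry no test. Female C57Bl/6 mice, fed 40 weeks on an atherogenic high-fat diet, were given adipose tissue-derived stem cells (ADSC) or phosphate-buffered saline (PBS), and the controls shared the diet and the cirrhosis. The ADSC were grown in culture from inguinal fat of mice with a GFP transgene and given as 2 injections of 100000 cells, 2 weeks apart, beneath the capsule of the spleen, with samples taken 2 weeks after the last. Each of the 4 groups held 4 arrays: hepatic inflammatory cells ADSC (numbers 7 to 10), hepatic inflammatory cells PBS (11 to 14), liver ADSC (7 to 10) and liver PBS (11 to 14).

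Chitinase-like proteins belong to the glycosyl hydrolase family of true chitinases and bind chitin or related sugars, but have lost the residues needed to cut them. Chil3 (Ym1) and Chil4 (Ym2) are rodent proteins secreted by myeloid cells. They are best known as interleukin-4 and interleukin-13 induced products of alternatively activated macrophages, and Chil3 is also made by neutrophils and their precursors. Chi3l1, which has a human counterpart followed in blood as a marker of liver fibrosis, is a secreted glycoprotein of neutrophils, macrophages and other cells that binds a receptor chain for interleukin-13.

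The arrays differed in brightness and content. The 75th percentile of the signal lay between 124 and 552 intensity units, 51.6% to 66.3% of spots were well above background, and correlations between arrays of a group lay between 0.940 and 0.982. Set against liver, inflammatory cells had less of the hepatocyte gene Alb (-3.94) and more of the T cell gene Cd3d (4.06), both as log2 differences. A group of 3 inflammatory cell arrays (ADSC 10, PBS 11 and PBS 13) stood apart by digestive enzymes of the exocrine pancreas, and values without them are given where a result rests on them. The protocol in the labels speaks of cells infiltrating a tumor and of blood, and the labels do not settle what fraction of the liver was isolated. In RNA from mixed cells, fewer cells of a type and less RNA per cell cannot be told apart.

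Chil3 and Chil4 lie near each other on chromosome 3, on the minus strand, and Chi3l1 lies on chromosome 1, on the plus strand. The 250 bases before each start site are shown because the 3 genes moved together on these arrays; the sequences are those of RefSeq on GRCm38.p6, written in the direction of the gene. Chil3 spans chr3:106167565-106167814, Chil4 chr3:106219480-106219729 and Chi3l1 chr1:134181906-134182155. Capitals mark matches to the motifs searched.
Chil3: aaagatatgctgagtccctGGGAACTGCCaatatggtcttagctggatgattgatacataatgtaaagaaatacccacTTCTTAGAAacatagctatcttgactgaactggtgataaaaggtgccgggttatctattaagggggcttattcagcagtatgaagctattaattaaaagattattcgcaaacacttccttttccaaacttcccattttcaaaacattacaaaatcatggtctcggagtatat
Chil4: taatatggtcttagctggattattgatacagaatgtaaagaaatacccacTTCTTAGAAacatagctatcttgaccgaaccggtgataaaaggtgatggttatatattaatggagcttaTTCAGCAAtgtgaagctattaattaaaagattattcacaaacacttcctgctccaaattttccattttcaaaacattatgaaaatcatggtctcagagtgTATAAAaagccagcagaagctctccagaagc
Chi3l1: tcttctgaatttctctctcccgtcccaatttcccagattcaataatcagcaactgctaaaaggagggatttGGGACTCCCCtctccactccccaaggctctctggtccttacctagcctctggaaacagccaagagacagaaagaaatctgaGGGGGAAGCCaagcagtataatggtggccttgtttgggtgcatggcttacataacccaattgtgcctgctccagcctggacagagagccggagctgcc

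The Chil3 and Chil4 windows were close copies. A local alignment covered 222 columns, of which 201 (90.5%) held the same base, whereas alignments of Chi3l1 with Chil3 or Chil4 covered 20 columns each. Both Chil windows were poor in G and C (36.4% for Chil3 and 34.0% for Chil4), and that of Chi3l1 held 51.6%.

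Motifs were searched on both strands. The pair TTC and GAA with 4 free bases between, the form preferred by STAT6 downstream of interleukin-4, was in 0 of 3 windows and in 5.85% of 32851 promoter windows of the same length. The same pair with 3 free bases, a general STAT form added after the sequences had been seen, was in Chil3 (172 to 164 bases before the start) and Chil4 (200 to 192 bases before it), as the same letters TTCTTAGAA, and in 7.02% of all windows. The C/EBP form TTGC, 2 free bases, AA was in Chil4 only, 131 to 124 bases before the start and read on the opposite strand, and in 9.56% of all windows. The PU.1 form GAGGAA was in 0 of 3 windows, against 23.3% of all windows.

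The NF-kB form GGG, 5 free bases, CC was in Chil3 and at 2 places in Chi3l1, one of which matched on both strands, and in 45.8% of all windows. A TATAAA box, also added later, stood 31 to 26 bases before the Chil4 start and in 12.4% of all windows. None of the matches overlapped another motif. A match is a description of letters and not a bound site.

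In inflammatory cells the 3 genes were lower after ADSC on every array. Chil3 stood at 4.01, 5.00, 4.66 and 4.27 in ADSC arrays 7 to 10, against 7.12, 8.51, 8.34 and 7.77 in PBS arrays 11 to 14 (log2 of the signal over the 75th percentile of its array, the scale of all levels here). The groups did not overlap, with 2.12 between the highest ADSC and the lowest PBS array. The difference was -3.45 ± 0.34 on the log2 scale (standard error of the fit, SE, 4 arrays against 4), a 10.9-fold lower signal after ADSC.

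Chil4 stood at 1.19, 1.53, 1.50 and 1.13 in inflammatory cells ADSC 7 to 10, against 4.31, 6.44, 5.44 and 5.16 in PBS 11 to 14. Again no ADSC array reached a PBS array, and 2.78 lay between the groups. The difference was -4.00 ± 0.38 (SE), or 16.0-fold.

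Chi3l1 stood at 0.07, 0.14, 0.04 and 0.03 in inflammatory cells ADSC 7 to 10, against 3.30, 3.97, 2.69 and 1.50 in PBS 11 to 14. The ADSC arrays were nearly alike and all below the lowest PBS array, number 14, by 1.36 or more. The difference was -2.80 ± 0.43 (SE), or 6.94-fold.

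**Figure D1:**
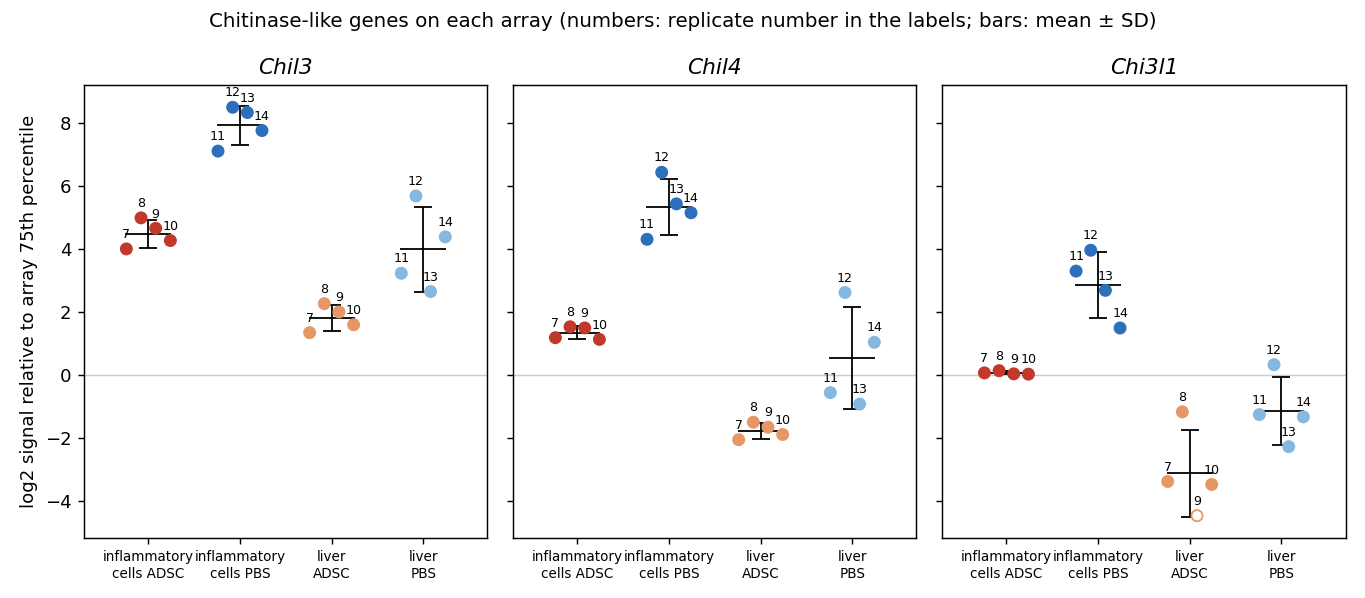
Level of Chil3, Chil4 and Chi3l1 on each of the 16 arrays, as log2 of the signal over the array's 75th percentile, by group, with the label number of each array, the group mean and the SD as bars; an open point was not well above background. For all 3 genes the 4 inflammatory cells ADSC points lie below the 4 inflammatory cells PBS points, and in liver only Chi3l1 overlaps between ADSC and PBS.

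All 3 members passed the limma fit of ADSC against PBS in inflammatory cells, in which 1.06% of 20190 genes were called lower and 0.134% higher at an adjusted p under 0.05. As the members were chosen with this contrast in view, nothing is read from that share. Without the 3 pancreas-rich arrays the differences were -3.58 for Chil3, -4.39 for Chil4 and -2.65 for Chi3l1. That fit and the fit with slide as a fixed block called 0 of all genes, so the members passed in neither. Slides 2 and 3 and scan days 2 and 3 held both treatments, and all within-batch differences were negative. For Chil3 they were -2.12 and -4.50 within slides and -3.31 and -3.87 within scan days. For Chil4 they were -2.78 and -5.26 within slides and -4.02 and -4.13 within scan days, and for Chi3l1 -3.16 and -3.90 within slides and -3.53 and -2.66 within scan days.

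In whole liver the levels were lower in both treatments, and those of Chil3 and Chil4 were more uneven after PBS. Chil3 stood at 1.35, 2.27, 2.00 and 1.60 in liver ADSC 7 to 10, against 3.24, 5.69, 2.65 and 4.39 in liver PBS 11 to 14. PBS 12 was the highest and PBS 13 came within 0.38 of the highest ADSC array. The difference was -2.19 ± 0.60 (SE), or 4.56-fold.

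Chil4 stood at -2.05, -1.50, -1.66 and -1.89 in liver ADSC 7 to 10, against -0.56, 2.62, -0.92 and 1.04 in liver PBS 11 to 14. PBS 12 was again the highest, and 0.58 separated the groups. The difference was -2.32 ± 0.70 (SE), or 4.99-fold.

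Chi3l1 stood at -3.38, -1.17, -4.47 and -3.48 in liver ADSC 7 to 10, against -1.26, 0.33, -2.27 and -1.33 in liver PBS 11 to 14. The groups overlapped, since ADSC 8 lay above PBS 11, 13 and 14, and the probe was not well above background on ADSC 9. The difference was -1.99 ± 0.75 (SE), or 3.98-fold.

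In the liver fit 0 of 3 members passed, among 17340 genes of which 0% were called lower and 0% higher by limma. Of these genes 809 had an unadjusted p under 0.05 (limma). With no gene called in that fit, nothing is read from a member or listed gene not passing there. Liver PBS 12 carried part of the size: without it the differences were -1.62 for Chil3, -1.63 for Chil4 and -1.50 for Chi3l1. Slide 2 and scan day 2 were the only batches with both treatments. Within slide 2 (1 array of each) the differences were -1.31, -1.13 and -1.11 for Chil3, Chil4 and Chi3l1, and within scan day 2 they were -0.98, -0.93 and -1.65.

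The ADSC difference in inflammatory cells minus that in liver was -1.26 ± 0.72 for Chil3, -1.68 ± 0.84 for Chil4 and -0.80 ± 0.92 for Chi3l1 (log2, SE, 16 arrays). Leaving out 1 array at a time gave -1.83 (without liver PBS 12) to -0.82 (without liver PBS 13) for Chil3, -2.37 to -1.19 for Chil4 without the same arrays, and -1.29 (without liver PBS 12) to -0.15 (without liver ADSC 8) for Chi3l1. In that fit 0 of 3 members passed, and 0.0316% of 22174 genes were called lower and 0% higher. Here too nothing is read from the members not passing, as they were chosen from these arrays.

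Averaged over the treatments, inflammatory cells were above liver by 3.31 ± 0.36 for Chil3 (9.93-fold), 3.95 ± 0.42 for Chil4 (15.5-fold) and 3.60 ± 0.46 for Chi3l1 (12.1-fold). All 3 passed this fit, in which 48.9% of 22174 genes were called higher and 35.4% lower in inflammatory cells. As the members were chosen from these arrays, nothing is read from their passing. The median of all genes was 0.35, and 0.68 with the percentile taken over probes detected on all arrays.

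Each gene had the same order of group means. Chil3 averaged 4.49 ± 0.43 in inflammatory cells ADSC, 7.94 ± 0.63 in inflammatory cells PBS, 1.81 ± 0.41 in liver ADSC and 3.99 ± 1.34 in liver PBS (SD, n = 4 each). The means of Chil4 were 1.34 ± 0.21, 5.34 ± 0.88, -1.77 ± 0.25 and 0.55 ± 1.63 in the groups as just listed. Those of Chi3l1 were 0.07 ± 0.05, 2.86 ± 1.05, -3.12 ± 1.39 and -1.13 ± 1.08. Inflammatory cells PBS was highest and liver ADSC lowest. Inflammatory cells ADSC and liver PBS, the neighbours in the middle, overlapped for all 3 genes.

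Chil3 and Chil4 tracked each other from array to array. The Chil4 level minus the Chil3 level lay between -3.80 and -2.07 on all 16 arrays, while the Chil3 level ran from 1.35 to 8.51. That gap averaged -3.15 ± 0.26 in inflammatory cells ADSC, -2.60 ± 0.37 in inflammatory cells PBS, -3.58 ± 0.16 in liver ADSC and -3.45 ± 0.31 in liver PBS (SD, n = 4 each). Pearson's r between them was 0.996 over 16 arrays, which share their groups, and 0.958 after removal of the group means.

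Chi3l1 followed less closely. Its level minus that of Chil3 lay between -6.47 and -3.44, and its r with Chil3 and Chil4 was 0.937 and 0.939, and 0.541 and 0.542 after removal of the group means. Inflammatory cells PBS 14, for one, was lowest of its group for Chi3l1 and not for Chil3 or Chil4. Chil3 and Chil4 are near-identical copies, and whether either probe also binds the other transcript was not tested, so their values cannot be taken as separate measurements.

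**Figure D2:**
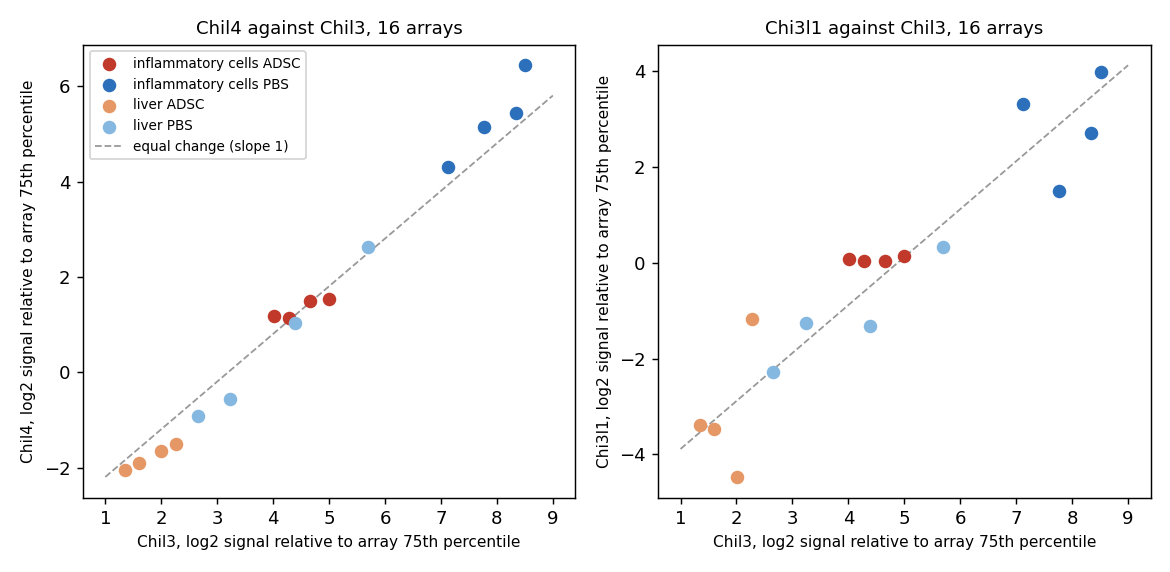
Chil4 level (left) and Chi3l1 level (right) against Chil3 level on the 16 arrays, coloured by group, in log2 of the signal over the array's 75th percentile; the dashed line has slope 1. Chil4 stays close to the line (r = 0.996) and Chi3l1 scatters more widely around it (r = 0.937).

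Among 12210 other genes with a symbol that were well above background on at least 8 arrays, the levels most like those of Chil3 were of Ifitm6 (r = 0.980), Retnlg (0.973), Mcemp1 (0.971), Scrg1 (0.970) and Itgb2l (0.969). Retnlg is a resistin-like hormone of myeloid cells and Itgb2l an integrin chain of neutrophils. The same 5 genes led for Chil4, with r from 0.971 (Scrg1 and Itgb2l) to 0.985 (Ifitm6). Chi3l1 levels were most like those of Trem3, a receptor of myeloid cells (0.980), Slfn3 (0.964), Ifitm6 (0.962), Cd33, a sialic acid-binding receptor of myeloid cells (0.961) and Ceacam10 (0.960).

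After removal of the group means the genes nearest to Chil3 were Inhbb (0.847), Mcemp1 (0.839), Vmn1r56 (0.834), Alox5ap, a partner of 5-lipoxygenase in leukotriene synthesis (0.831), and Olfr1260 (0.828). Those nearest to Chil4 were St8sia6 (0.870), Ifitm6 (0.862), Alox5ap (0.859), Vmn1r56 (0.857) and Mgst2 (0.852). For Chi3l1 they were Trem3 (0.941), Slfn3 (0.912), Gad1 (0.877), Spag5 (0.868) and Mybpc3 (0.826). Ifitm6, the gene most like Chil3 and Chil4 in level, differed by -3.60 between ADSC and PBS in inflammatory cells and by -2.53 in liver. As it was picked by levels that include the group differences, this likeness is no separate result. These are rankings over 16 arrays, with no test, and several of the genes were dim. Vmn1r56, Spag5 and Ceacam10 were well above background on 9 arrays, and Olfr1260, St8sia6 and Gad1 on 10. Scrg1, Itgb2l and Slfn3 were so on 11 arrays and Trem3 on 12.

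The members have relatives in the same enzyme family, true chitinases included. Of 6 measured relatives 0 were called in inflammatory cells, with a median ADSC minus PBS difference of -0.27 beside 0.03 over all genes. The active chitinases Chia1, an acidic stomach and lung enzyme, and Chit1, the macrophage chitotriosidase, differed by -0.31 ± 0.30 and -0.24 ± 0.26 (SE). Values for the others were -0.03 for Ovgp1, the oviduct glycoprotein, -0.19 for Chil6, -0.31 for Chid1 and -0.83 for Ctbs, a lysosomal chitobiase (adjusted p from 0.0874 to 0.962, limma). In liver 4 were tested, 0 were called, and the differences lay between -0.20 (Chit1) and 0.12 (Chid1), with a median of -0.07 beside 0.04 over all genes.

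Between sample types 4 of the 6 relatives were higher in inflammatory cells, namely Ovgp1 by 1.52, Chit1 by 0.65, Chia1 and Chil6. Chia1 was well above background on 1 of 8 liver arrays, so its difference of 2.60 rests on signal near background, and it ran from 0.56 to 2.93 over the alternatives. The Chil6 probe was above background on 0 of 8 liver arrays, so Chil6 is given as at least 6.12-fold higher on the scaling used, with log2 differences from 0.39 to 3.04 over the alternatives. Such a bound sets the brighter mean against the higher, per array, of what the dim probe gave and the dimmest signal still marked as well above background, and it holds for the processed signal only. Chid1 (-0.87) and Ctbs (-0.51) were lower, and Ctbs turned to 0.25 when all its probes were averaged.

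Of the receptors and binding partners of Chi3l1, 1 of 5 tested was called in inflammatory cells and the median was -0.01. Lgals3, the sugar-binding galectin-3, averaged 4.98 ± 0.33 in ADSC and 6.37 ± 0.31 in PBS arrays (SD, n = 4 each), a fall of 2.62-fold (limma adjusted p = 0.0259). Differences of the others were -0.63 ± 0.27 for Cd44, the hyaluronan receptor, -0.01 for Ptgdr2, a prostaglandin D2 receptor, 0.27 for the syndecan Sdc1 and 0.36 for Ager. Il13ra2, the interleukin-13 receptor chain bound by Chi3l1, was not well above background on any of the 16 arrays. In liver 0 of 4 were called, with values of -0.46 for Cd44, 0.31 for Lgals3, 0.25 for Ptgdr2 and -0.01 for Sdc1.

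The type 2 cytokine pathway is known to drive Chil3 and Chil4 in macrophages. Of 12 genes tested in inflammatory cells 1 was called lower and 0 higher, with a median of 0.21. The called gene was Il13ra1, the signalling interleukin-13 receptor chain, at -1.51 ± 0.27 (SE; limma adjusted p = 0.0266). The ligands Il4 and Il13 differed by -0.15 ± 0.26 and 0.22 ± 0.26, and Stat6, the transcription factor of the pathway, by 0.07 ± 0.23 (adjusted p = 0.802, 0.689 and 0.901).

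Other members of that pathway were 0.06 for the shared receptor chain Il4ra, 0.20 for Il2rg, 0.25, 0.30 and 0.01 for the kinases Jak1, Jak3 and Tyk2, 0.74 for the interleukin-33 receptor Il1rl1, 0.39 for Tslp and 0.29 for Gata3. Il5, Il25 and Il33 were well above background on at most 1 array of either group of inflammatory cells and were not tested there. In liver 0 of 8 were called (median -0.08), from -0.43 for Jak3 to 0.13 for Tyk2, with Il33 at -0.36, Il4ra at -0.30, Il2rg at -0.11, Il13ra1 at -0.06, Jak1 at 0.06 and Stat6 at 0.03.

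Other genes of alternatively activated macrophages, the cells for which Chil3 is a textbook marker, were not called beside it. Of 12 tested in inflammatory cells 0 were called, and their median was -0.06 beside 0.03 over all genes. That median hides both directions, as 7 of 12 differences were negative and they ran from -1.15 to 2.12. An unadjusted p under 0.05 (limma) was found for 5 of the 12, and for 3723 of all 20190 genes. The part of these genes in the members' differences was not tested. The largest differences were 2.12 ± 0.86 for Retnla, the resistin-like protein usually named beside Chil3, 1.18 ± 0.44 for the transcription factor Irf4 and -1.15 ± 0.31 for the mannose receptor Mrc1 (SE; limma adjusted p = 0.236, 0.21 and 0.118). In liver 0 of 6 were called, with -1.34 ± 0.81 for Ccl17, -0.36 for Mrc1 and -0.28 for Ccl24, while no liver array had Retnla well above background. Retnla was 42.5-fold higher in inflammatory cells than in liver on the scaling used. That size rests on liver signal near background and is no lower bound, as log2 differences ran from 2.31 to 5.80 over the alternatives. Arg1, also a hepatocyte enzyme, was lower in inflammatory cells by 5.37 on the log2 scale (-5.37 ± 0.25).

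Of the cytokines and signal transducers that induce Chi3l1, 1 of 10 tested was called in inflammatory cells. Il1b averaged 4.62 ± 0.24 in ADSC and 6.55 ± 0.75 in PBS arrays, a fall of 3.81-fold (adjusted p = 0.0259, limma). Il17a at -2.74 ± 0.63 and Osm at -1.81 ± 0.38 did not pass (adjusted p = 0.0686 and 0.0512), and the median of the list was -0.42. In liver 0 of 7 were called, with Il1b at -1.48 ± 0.54, Tnf at -1.18 ± 0.43 and Il1r1 at -0.22. Among 8 myeloid transcription factors Cebpb alone was called in inflammatory cells, at -1.27 ± 0.25 (adjusted p = 0.0368), and in liver 0 of 7 were. Each of these single calls depended on the settings: Lgals3, Il13ra1 and Il1b did not pass in 10 of 19 alternatives each, and Cebpb in 12 of 19. The fit called 1.06% of all genes lower, and nothing is read from 1 call in a list.

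**Figure D3:**
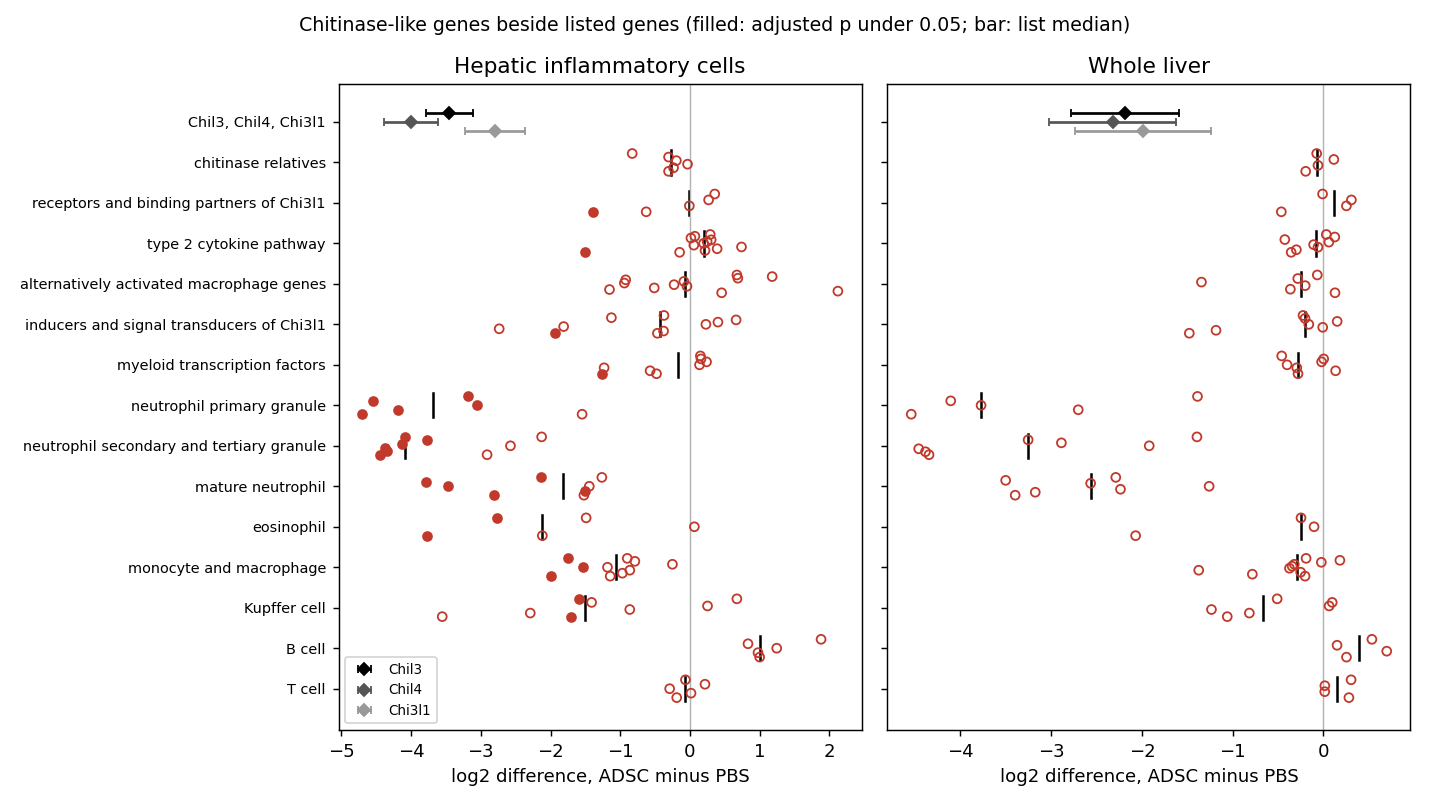
ADSC minus PBS differences (log2) of the 3 chitinase-like genes (diamonds, bars are SE) and of single genes in each list (circles, filled where the adjusted p is under 0.05) in hepatic inflammatory cells (left) and liver (right), with a bar at each list's median. In inflammatory cells the members lie at -3.45, -4.00 and -2.80, and the medians of the neutrophil lists at -3.68, -4.09 and -1.83. Other medians are -2.12 (eosinophil), -1.50 (Kupffer cell), -1.06 (monocyte and macrophage) and -0.06 (alternatively activated macrophage genes).

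Neutrophil genes moved beside the members. All 23 neutrophil genes tested in inflammatory cells had negative differences, with a median of -3.18 beside 0.03 over all genes. Of these 16 were called lower and 0 higher, in a fit that called 1.06% of genes lower. As the lists were chosen with earlier results of these data known, nothing is read from that count. Of the primary granule genes, made in precursors, 5 of 6 were called lower. Among these were Elane at -4.70 ± 0.61, Ctsg at -4.54 ± 0.44, Mpo at -4.18 ± 0.59 and Ms4a3 at -3.18 ± 0.47 (SE, limma adjusted p from 0.00248 to 0.0111). Elane was well above background on only 1 of 4 ADSC arrays, and its difference ran from -5.49 to -2.51 over the alternatives. Of the later secondary and tertiary granule genes 6 of 9 were called lower. They included Ltf, lactoferrin, at -4.44, Ngp at -4.37, Camp, cathelicidin, at -4.34 and Lcn2 at -4.14 (limma adjusted p from 0.00248 to 0.004). Of mature neutrophil genes 5 of 8 were called lower. They included Stfa2l1 at -3.78, Retnlg at -3.47, S100a8 at -2.81 and Il1r2 at -2.13 (limma adjusted p from 0.00248 to 0.026).

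None of these neutrophil genes was called in 2 other fits, but those fits called 0 of all genes. Some did not pass in more: Il1r2 and S100a9 in 9 of 19 alternatives each and Prtn3 in 4. Elane was not tested without the 3 pancreas-rich arrays. Without the 3 pancreas-rich arrays 0 of 22 passed (median -3.27, all 22 negative, adjusted p from 0.137 to 0.218), and with slide as a fixed block 0 of 23 passed (median -3.94, all 23 negative, adjusted p from 0.0513 to 0.0946). With scan day as a term 16 were called lower. The mean of the 23 genes differed by -3.13 between ADSC and PBS in inflammatory cells, by -3.18 and -4.06 within slides 2 and 3, and by -3.62 and -2.79 within scan days 2 and 3.

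In liver 0 neutrophil genes were called, and the list medians were -3.77, -3.25 and -2.56 for primary, secondary and tertiary, and mature genes, beside 0.04 over all genes. Mpo at -4.54 ± 0.87, Ngp at -4.46 ± 0.77 and Stfa2l1 at -3.50 ± 0.78 had adjusted p = 0.579, 0.512 and 0.743 (SE, limma). The mean of the 23 genes differed by -2.83 in liver, but by -0.61 within slide 2 and -1.12 within scan day 2.

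Summed over the 23 genes, the signal was 412 to 620 times the array's 75th percentile in inflammatory cells ADSC, 1301 to 2693 in inflammatory cells PBS, 28.6 to 70.2 in liver ADSC and 127 to 858 in liver PBS. No liver ADSC array had Prtn3, Ms4a3, Itgb2l or Cd177 well above background. Over 16 arrays r with the mean of the 23 genes was 0.962 for Chil3, 0.967 for Chil4 and 0.946 for Chi3l1, and 0.681, 0.773 and 0.679 after removal of the group means. The r values with the alternatively activated macrophage list were 0.699, 0.705 and 0.757, and 0.168, 0.071 and 0.222 after that removal. With a list of 5 eosinophil genes they were 0.939, 0.954 and 0.889, and 0.577, 0.666 and 0.187 after it. With 10 monocyte and macrophage genes they were 0.918, 0.925 and 0.864, and 0.628, 0.687 and 0.489 after it. High r values were therefore not particular to the neutrophil genes. The part of the neutrophil genes in the members' differences was not tested.

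**Figure D4:**
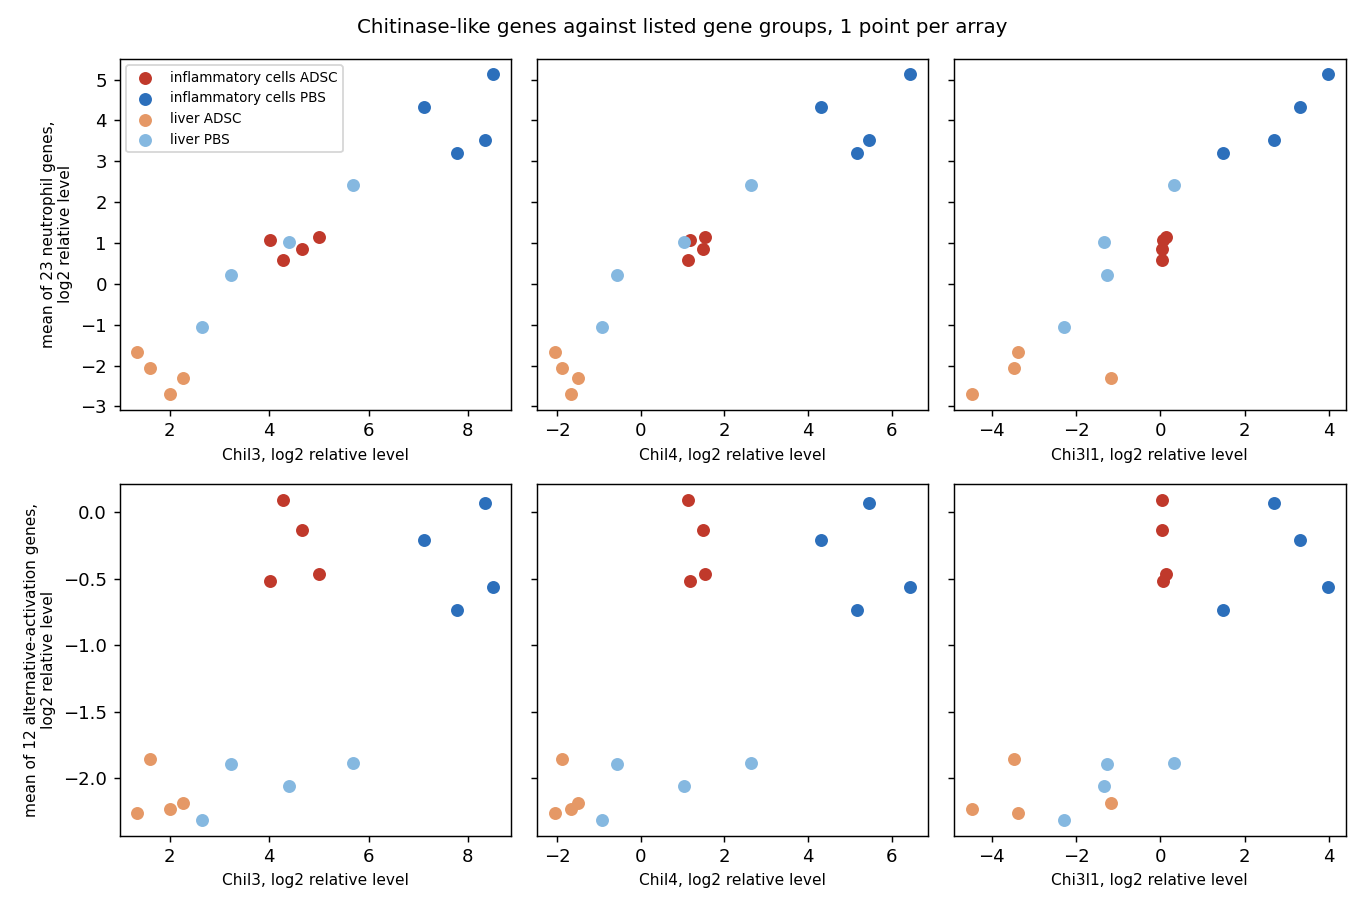
Mean log2 relative level of 23 neutrophil genes (top) and of 12 alternatively activated macrophage genes (bottom) against Chil3, Chil4 and Chi3l1, 1 point per array, coloured by group. The neutrophil mean follows each gene over all 4 groups (r from 0.946 to 0.967), whereas the macrophage mean separates inflammatory cells from liver and has a similar level in ADSC and PBS inflammatory cells.

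Markers of other cells that could hold these transcripts were measured as well. The fit in inflammatory cells called 1.06% of all genes lower. As these lists too were chosen with earlier results of these data known, nothing is read from the counts called. Of 5 eosinophil genes tested in inflammatory cells 4 had negative differences (median -2.12) and 2 were called lower. Prg2, a granule protein, was called at -3.77 ± 0.70 (SE, limma adjusted p = 0.0296). Siglecf, also called, was not well above background on any ADSC array of the inflammatory cells and was at least 6.83-fold lower there on the scaling used. With normexp and the 75th percentile the Siglecf difference was -0.87 and did not pass (adjusted p = 0.129). All 10 monocyte and macrophage genes had negative differences, with a median of -1.06. Of these 3 were called lower, Cd14 at -1.99, Fcgr3 at -1.74 and Fcgr1 at -1.53 (limma adjusted p from 0.0102 to 0.0245). Of 8 Kupffer cell genes 6 had negative differences (median -1.50). Those called lower were Cd5l at -1.71 and Slc40a1 at -1.59 (limma adjusted p = 0.049 and 0.0277). Of 6 mast cell and basophil genes 3 had negative differences (median -0.02). The basophil protease Mcpt8 alone was called lower, at -2.39 (limma adjusted p = 0.0194).

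No listed gene was called higher. All 5 B cell genes had positive differences, from 0.83 to 1.88 with a median of 1.00, as did all 4 hepatocyte genes (median 0.93), and the T cell median was -0.06. Cd14, Fcgr1 and Slc40a1 did not pass in 9 of 19 alternatives each, Prg2 in 8, Mcpt8 in 5 and Cd5l in 15. With scan day as a term 1 of 10 monocyte and macrophage genes and 0 of 8 Kupffer cell genes passed. No eosinophil, monocyte, Kupffer, mast or basophil gene was called in liver, without the 3 pancreas-rich arrays or with slide as a fixed block. Those fits called 0 of all genes, so this could not have come out otherwise. The part of these cell types in the members' differences was not tested.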

How the data were processed

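Total RNA from 16 samples was labelled with Cy3 and hybridised to 16 one-colour arrays, per the labels. The deposited processed signal is an intensity that Agilent Feature Extraction 10.5.1.1 background-subtracted, per the file headers, and the median spot signal and local background, also deposited intensities, served an alternative. The flags for outlying, saturated and well above background spots are 0 or 1 in the same files, per the file headers. The deposited value table held the same linear intensity, with a largest relative difference of 0 from the scanner files and column medians from 30.6 to 90.9, so it was neither centred nor log-transformed. Each array was scaled on the log2 scale to its own 75th percentile, taken over 43379 non-control spots. Outlier spots were left out, spots of a probe were averaged, and the brightest probe stood for a gene. Symbols came from GRCm38.p6 by accession (23374 of 41174 probes).

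A gene entered a fit if 4 or more of its arrays had the probe well above background. Fits used limma 3.58.1 (lmFit, eBayes) in R 4.3.3, with Benjamini-Hochberg adjustment over all genes tested and a threshold of 0.05. ADSC and PBS were compared within each sample type (8 arrays), and the other contrasts used all 16 arrays with 4 group means. The fit was tested on simulated data. The labels do not say that arrays come from separate animals, so p-values measure the spread between these samples, and the number of arrays limits the precision. The members and lists were chosen with earlier results of these data known. Genes named are the members, the 5 most alike by r of levels and of residuals from group means, every measured gene of the first 3 lists (relatives, receptors, type 2 pathway), and from each other list at most 4 that passed, or at most 3 of largest difference. Alternatives changed background correction, scaling, the filter on dim probes, the probe per gene, slide, scan day, replicate block and arrays left out. Of 167 listed genes 151 had a probe. Proteins and probe sequences were not used here.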

Additional observations from a re-analysis of the deposited data

Results flagged for a closer look

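The mean level of the 5 eosinophil genes on liver ADSC array 9 was -3.43, while the other 3 liver ADSC arrays lay between -3.60 and -3.59 (log2 relative to the array's 75th percentile). It was singled out because its distance from the nearest array filled nearly the whole range of its group of 4. Of 36 groups of 4 arrays tested in this way, chance singles out about 1 in 20. The 36 groups did not cover every list, and an array of this kind also stood outside them. For the chitinase relatives, inflammatory cells PBS 13 lay at -1.21 and the other 3 arrays of its group between -1.66 and -1.61. The levels of Chil3, Chil4 and Chi3l1 held no such array in any group.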

How the results depend on the processing

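All alternatives kept the sign of the members' differences in the 4 comparisons. The differences that moved by more than the spread between arrays were Chil3 in inflammatory cells at -2.84 (quantile normalization) and -2.87 (normexp and quantile), Chil4 in liver at -1.13 (slide as a fixed block), Chil3 and Chil4 in liver at -0.98 and -0.93 (scan day as a term) and Chi3l1 between sample types at 2.56 (normexp and quantile). Leaving out 1 array at a time gave ADSC minus PBS differences in inflammatory cells from -3.72 to -3.26 for Chil3, -4.34 to -3.63 for Chil4 and -3.25 to -2.43 for Chi3l1, and in liver from -2.63 to -1.62, -2.81 to -1.63 and -2.64 to -1.50. Counts moved more. In inflammatory cells 242 genes, 28 of them listed, passed as reported. Of all genes 140 passed with the percentile over detected probes (median of all genes 0.16, against 0.03 as reported), 109 with no filter, 155 with scan day, 819 with slide as a random block, and 0 with slide fixed (5375 at an unadjusted p under 0.05) or without the 3 pancreas-rich arrays (4607 unadjusted), an alternative chosen after seeing the data. Of listed genes 16 passed with no filter, 49 with slide random, and 0 with slide fixed or without those arrays. Leaving out 1 array gave 68 (ADSC 9) to 508 (ADSC 7) genes, with 138 (ADSC 8), 89 (ADSC 10) and 78 (PBS 12) between, and 15 (ADSC 9) to 29 (PBS 13) listed genes, with 16 without PBS 12. In liver 1 gene passed with the mean of all probes. For the difference between sample types 7 genes passed, and 34 (normexp), 70 (normexp and quantile), 21 (quantile), 64 (above background on every array), 1 (detected probes) and 0 (no filter, slide fixed or scan day) under alternatives, and 0 to 46 with 1 array left out; listed genes were 0, and 2 (normexp), 1 (quantile), 3 (every array) and 0 to 1 with 1 array left out. Between sample types 18706 genes and 126 listed genes passed, and 10464 and 70 with the strictest filter, which tests fewer genes; Ctbs turned to 0.25 with the mean of all probes. For other changes the cause was not tested. Replicate numbers are shared by the sample types, but same-numbered arrays deviated together with r from -0.14 to 0.16, and the labels do not say what a number stands for, so the replicate block served only as an alternative; with it 7 genes passed for the difference and 18700 (random) or 18438 (fixed) between sample types. Where a probe is near background, as for Chi3l1 on liver ADSC 9, signal limits the value.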
